A study of Mus musculus with 65 samples.

Results

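The genes described here are 10 members of the corticotropin-releasing hormone (CRH) system and the glucocorticoid response, out of 55292 gene symbols in the deposited count table. They are the CRH-type peptides Crh and Ucn, the receptors Crhr1 and Crhr2, the secreted CRH-binding protein Crhbp, the glucocorticoid receptor Nr3c1, and the glucocorticoid-responsive genes Fkbp5, Sgk1, Tsc22d3 and Per1. The members were listed by name with earlier results of these data known. Crhbp was on the list because of its difference between the groups, so all values below are descriptions and none is a test.

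Each library is 1 outer hair cell (OHC) picked by hand from the mouse cochlea at postnatal day 10, the sensory cell that amplifies sound. The Smart-Seq HT kit gave full-length cDNA. In the 48 WT cells, 1 Slc26a5FlpO allele switched on 1 Rosa26FSF-H2BEGFP allele, a nuclear green reporter by which OHCs were recognised. The 17 CKO-labelled cells carried both of these alleles and, in addition, 1 Atoh1Cre allele with Casz1flox on both chromosomes. Atoh1-driven Cre acts in the hair cell lineage and in other cells that express Atoh1. The groups therefore differ in Cre as well as in Casz1, a zinc finger transcription factor. No animal or litter is named, so each genotype is 1 sample, cells are not replicates, and differences between animals and between genotypes cannot be told apart.

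CRH is the peptide with which the hypothalamus starts the hormonal stress response, and urocortin (Ucn) is a related peptide. Both act on G protein-coupled receptors that raise cAMP, and CRH-binding protein holds the peptides outside the cell and limits their action. At the end of this axis the adrenal gland releases glucocorticoids, which bind the receptor encoded by Nr3c1. The receptor then moves to the nucleus and activates genes such as Fkbp5, a chaperone that lowers the receptor's affinity for hormone, and Tsc22d3, which encodes the anti-inflammatory leucine zipper protein GILZ. CRH and its receptors have also been described within the cochlea, apart from the hypothalamus.

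Total counts ranged from 7458126 to 17107710 in WT cells and from 8239671 to 15320549 in CKO-labelled cells. The median cell had a count for 7585.5 genes in WT and 7417 in CKO. The OHC markers Slc26a5 and Ocm had at least 10 counts in every cell, although protocol text shared by all samples also speaks of inner hair cells. Summed over 8 OHC markers, levels ranged from 16237 to 64659 CPM (counts of a gene per 1000000 counts) in WT cells and from 34340 to 91011 CPM in CKO cells. The 6 inner hair cell markers had summed medians of 1716 CPM in WT and 1490 CPM in CKO, mostly from Calb2 (1647 and 1431 CPM, at least 10 counts in every cell) and Otof (170 and 81.6 CPM, in 35 and 13 cells). Of the others, Slc17a8 reached 10 counts in 11 WT and 4 CKO cells, and Tbx2 in none. The summed supporting cell markers had medians of 46.7 and 9.27 CPM, the glial markers 97.4 and 16.8 CPM, and the 7 macrophage markers 0 in both groups. The macrophage sum reached 188 CPM in a WT and 73.4 CPM in a CKO cell; C1qb had at least 10 counts in 12 WT cells and 1 CKO cell (18.8 and 3.03 CPM), while C1qa and Cx3cr1 were at 0 everywhere. Casz1 itself had 53.3 CPM in WT and 46.2 CPM in CKO, and since the floxed exons are not stated, counts over the whole gene do not check the deletion. Its exons overlap those of Gm13205 on the opposite strand. The groups also differed in sex pattern: 9 WT and 15 CKO cells had the Xist pattern, 37 WT and 0 CKO cells had the Y pattern, and 2 in each group had neither. Earlier results of these data divide the WT cells by number into 1 to 11, 12 to 45 and 46 to 48, and 8 of the Xist-pattern WT cells are among the first 11. Values within these subsets are therefore given beside the members with counts.

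Levels below are CPM of the counts summed over a group, with 95% exact Poisson intervals. Ratios are log2 of CKO over WT with exact conditional intervals, and shares of cells have exact binomial (Clopper-Pearson) intervals. The intervals of levels and ratios hold counting error alone. Because the kit adds no molecular identifiers, reads are not independent molecules, and spread between cells and animals is left out. A gene was called measured at 5 CPM or more in the higher group, and clearly detected in a cell at 10 counts or more. Of 10842 measured genes in the table, 14.5% were at least 2-fold lower in CKO and 15.1% at least 2-fold higher.

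Of the 10 members, 6 were measured, namely Crhbp, Crhr2, Nr3c1, Sgk1, Tsc22d3 and Per1. Crhbp alone was at least 2-fold lower in CKO, while Crhr2, Tsc22d3 and Per1 were at least 2-fold higher. Crhr2 and Tsc22d3 were measured only through the CKO group, and Crhbp only through WT, so these counts were partly set by the filter and nothing is read from them. The direction of Crhr2 rested on 1 CKO cell, and the size of the Tsc22d3 ratio on a few cells of both groups. The plot of detection by gene shows how few of the 10 genes were found in more than a handful of cells.

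**Figure D1:**
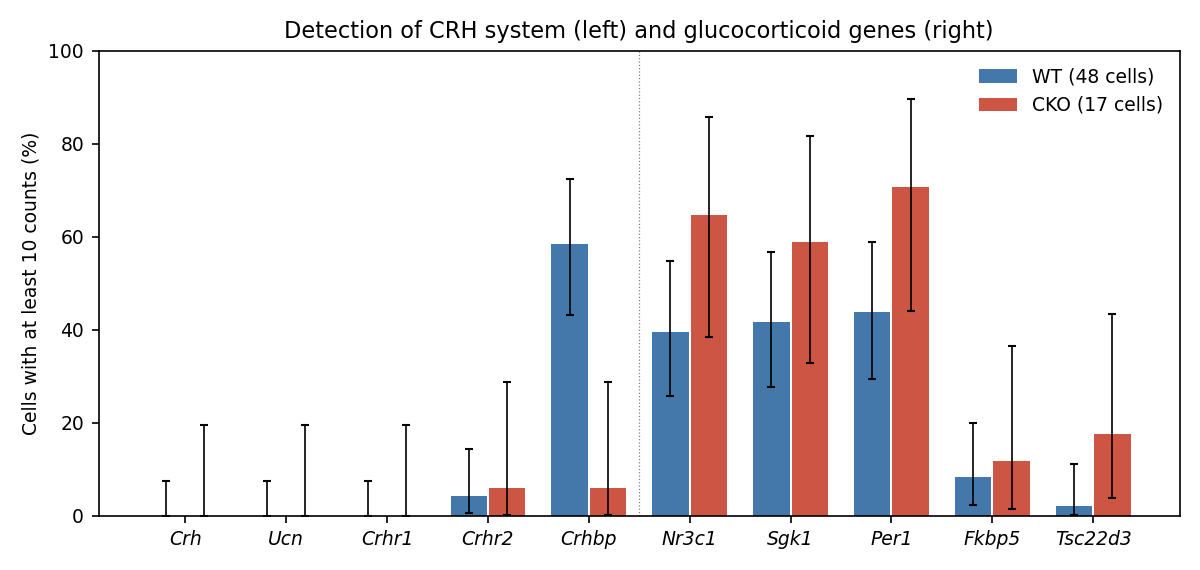
Share of cells with at least 10 counts of each of the 10 genes, in percent, for 48 WT and 17 CKO-labelled cells; bars are exact binomial 95% intervals. Crhbp was found in 58.3% of WT and 5.88% of CKO cells, whereas Nr3c1, Sgk1 and Per1 were found in a larger share of CKO cells, with intervals that overlap those of WT.

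No read was assigned to the peptide genes. Crh (GRCm38 chromosome 3, 19693401 to 19695396, minus strand) and Ucn (chromosome 5, 31138063 to 31138829, minus strand) had 0 counts in all 65 cells. Taking 3 counts as what a count of 0 allows, the limits are 0.00548 CPM over the WT cells and 0.0150 CPM over the CKO cells, and 6.25% of WT and 17.6% of CKO cells. The exact upper bounds are 0.00673 and 0.0185 CPM, and 7.40% and 19.5% of cells. The annotation and strand setting behind the counts are not given in the sources used, so a 0 here, as for any gene below, says that no read was assigned to the gene. Crhr1 (chromosome 11, 104132855 to 104175523, plus strand), the receptor with high affinity for CRH, had a single count, in WT cell 33.

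Crhr2 (chromosome 6, 55090049 to 55133016, minus strand), the receptor preferred by the urocortins, was nearly all or nothing. It had 788 counts (70.3 CPM) in WT cell 7, 369 counts (28.1 CPM) in WT cell 11 and 2 counts in WT cell 46. In the CKO group all 1428 counts (116 CPM) came from cell 9, and the other 16 cells had none. Any Crhr2 count was thus rare in both groups, in 3 of 48 WT cells (6.25%, 1.31 to 17.2%) and 1 of 17 CKO cells (5.88%, 0.149 to 28.7%). The summed levels of 2.12 CPM (2.00 to 2.24) and 7.15 CPM (6.78 to 7.53) gave a log2 ratio of 1.76 (1.64 to 1.87). Without CKO cell 9 no Crhr2 count was left in CKO, and the ratio became an upper bound of -7.05. WT cells 7 and 11 are of the Xist pattern and among cells 1 to 11, and against WT cells 1 to 11 the log2 ratio was -0.057. WT cells 12 to 45 had no count, which gives a lower bound of 9.73.

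Crhbp was the most abundant member per length in WT cells. Its gene lies on chromosome 13 (95431371 to 95444924, minus strand), and no exon of another annotated gene overlaps its exons, nor those of any other member. The sequence just upstream of its annotated first exon is shown because Crhbp is the member with the largest difference between the groups. It covers chr13:95444925-95445081 on the minus strand, from RefSeq (GRCm38.p6), and no motif searched for falls inside it, so it holds no capitals.
Crhbp upstream: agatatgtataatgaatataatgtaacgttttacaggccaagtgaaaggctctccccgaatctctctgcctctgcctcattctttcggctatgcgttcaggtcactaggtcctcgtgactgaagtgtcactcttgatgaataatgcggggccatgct

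In WT, 28 of 48 cells (58.3%, 43.2 to 72.4%) had at least 10 Crhbp counts, 4 had exactly 1 count and 16 had none. Among the 28 clearly positive cells the level ranged from 1.98 to 230 CPM with a median of 64.4 CPM. The highest were WT cell 18 at 230 CPM, WT cell 41 at 185 CPM and WT cell 6 at 172 CPM. The spread was thus wide within 1 genotype, and WT cells fell into clearly positive cells and cells with at most 1 count, with nothing between 1 and 29 counts. In CKO, 1 of 17 cells (5.88%, 0.149 to 28.7%) was clearly positive. That cell, CKO cell 3, had 769 counts (60.6 CPM), which is close to the median of the positive WT cells, and supplied 99.9% of the group's counts. CKO cell 12 had 1 count and 15 cells had none.

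The groups therefore overlapped, through CKO cell 3 and through the WT cells without Crhbp. Over the 816 pairs of 1 WT and 1 CKO cell, WT was higher in 64.1%, CKO in 6.50%, and 29.4% were tied. Summed levels were 43.7 CPM (43.2 to 44.3) in WT and 3.85 CPM (3.59 to 4.14) in CKO. The log2 ratio was -3.50 (-3.61 to -3.40), or 11.3-fold lower in CKO. Without CKO cell 3 a single count was left in CKO and the log2 ratio was -12.997 (-18.30 to -10.52). CKO had fewer positive cells, and its 1 positive cell lay within the range of the positive WT cells, so a level of positive CKO cells rests on that cell alone.

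The share of clearly positive cells was 52.5 percentage points lower in CKO. This difference was known when the gene was listed. Within WT the share was not even. Clearly positive were 4 of cells 1 to 11, 22 of the 34 cells 12 to 45, and 2 of cells 46 to 48, with 20.6, 53.8 and 44.03 CPM. Among cells of the Xist pattern, 3 of 9 WT cells and 1 of 15 CKO cells were clearly positive, with 20.6 and 4.37 CPM and a log2 ratio of -2.24. The direction was the same in each subset, while the ratio was smaller among cells of the Xist pattern and, at -2.42, against the first 11 WT cells. The part of sex and of the WT subset in the difference was not tested.

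**Figure D2:**
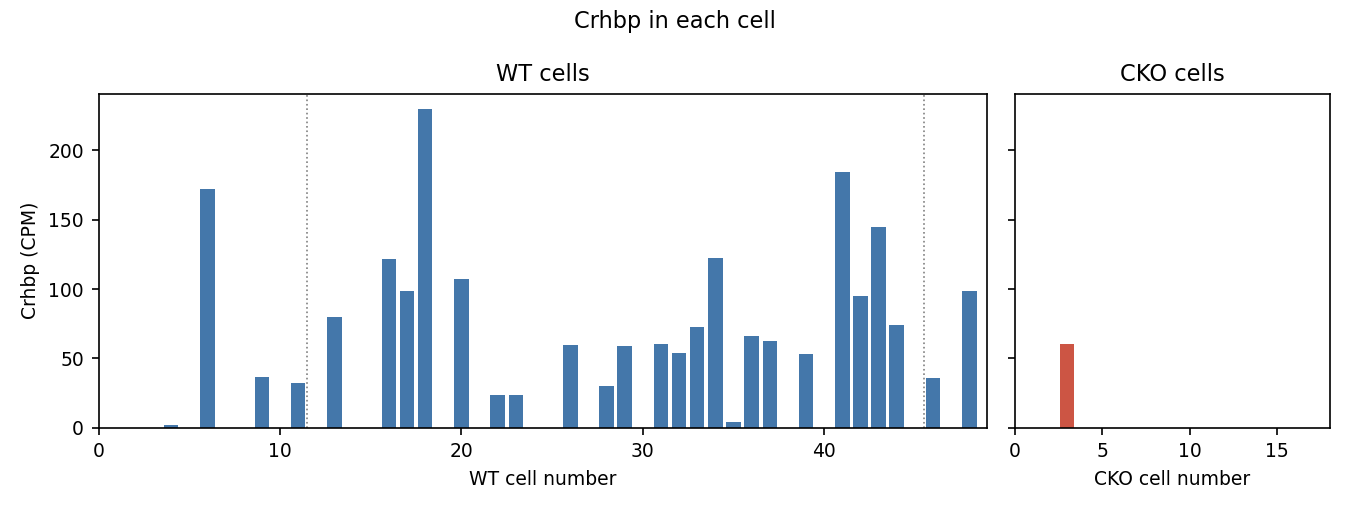
Crhbp level in CPM of each cell, by cell number, for WT and CKO-labelled cells; dotted lines separate WT cells 1 to 11, 12 to 45 and 46 to 48. Cells 12 to 45 hold 22 of the 28 clearly positive WT cells, and CKO cell 3 is the only CKO cell above 1 CPM.

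Clearly positive and other WT cells were alike in depth. The 28 Crhbp-positive cells had a median total of 11334918 counts and the 20 others 12057222, with medians of 7633 and 7502 genes. The summed OHC markers had medians of 35966 and 40987 CPM, the supporting cell markers 47.9 and 42.3 CPM, and the neuronal markers 419 and 491 CPM. The summed inner hair cell markers had medians of 1985 and 1334 CPM. Macrophage, endothelial and erythroid markers had a median of 0 in both. Ranges of the positive and the other cells overlapped for each of these lists.

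Other genes whose level followed Crhbp across the 48 WT cells were ranked by Spearman's rho of CPM, among 8613 genes. Cells share their genotype and differ in depth, and rho to total counts was -0.16. The 5 highest were Idh3g at 0.53, a subunit of isocitrate dehydrogenase in mitochondria; Bcas2 at 0.52, a splicing factor; Serpinb6a at 0.52, an intracellular protease inhibitor; Dhx38 at 0.51, a splicing helicase; and B3galt5 at 0.50, a galactosyltransferase. The 99th percentile of all genes was 0.35, so these are the upper tail of a broad spread. Within the 34 WT cells 12 to 45 alone, rho was 0.51, 0.53, 0.50, 0.43 and 0.56. None of the 5 was 2-fold apart between the groups: Serpinb6a, for example, had 447 CPM in WT and 555 CPM in CKO. Among the members, rho to Crhbp was 0.18 for Sgk1, 0.17 for Per1 and 0.02 for Nr3c1, and in WT cells 12 to 45 it was 0.37, 0.16 and 0.07.

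The glucocorticoid receptor Nr3c1 (chromosome 18, 39410545 to 39519421, minus strand) was found in both groups. It had at least 10 counts in 39.6% of WT cells (19 of 48, 25.8 to 54.7%) and 64.7% of CKO cells (11 of 17, 38.3 to 85.8%). Clearly positive WT cells ran from 2.22 to 216 CPM with a median of 45.3 CPM, and clearly positive CKO cells from 1.53 to 214 CPM with a median of 69.0 CPM. The highest cell was number 5 in both groups, and the ranges overlapped almost wholly. Summed levels were 29.5 CPM (29.1 to 30.0) and 51.2 CPM (50.2 to 52.2), a log2 ratio of 0.80 (0.76 to 0.83). WT cells 1 to 11 alone had 59.1 CPM, more than the CKO cells, and against them the log2 ratio was -0.21. WT cells 12 to 45 had 17.5 CPM. Among Xist-pattern cells the levels were 27.04 CPM in WT and 57.3 CPM in CKO. The direction of the summed level thus depended on which WT cells were used.

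Most genes around the receptor were abundant. Of 21 genes for its chaperones, cofactors and steroid metabolism, 19 were measured, 12 were higher and 7 lower in CKO, and none was 2-fold apart. Their median log2 ratio was 0.21, beside 0.01 over all measured genes. Hspa8, a heat shock chaperone that takes part in folding the receptor, had the highest level of the list, with 4021 CPM in WT and 4691 CPM in CKO. Hsd11b1, the enzyme that regenerates active glucocorticoid inside cells, had 406 and 748 CPM, a log2 ratio of 0.88. It had at least 10 counts in 42 of 48 WT and 15 of 17 CKO cells, and the median cell had 219 and 735 CPM. WT cells 1 to 11, 12 to 45 and 46 to 48 had 245, 427 and 893 CPM of Hsd11b1, so its level varied among the WT subsets, the last lying above the CKO level. Among Xist-pattern cells it had 194 CPM in WT and 685 CPM in CKO, a larger difference than over all cells. Med1, a Mediator subunit, had 63.0 and 110 CPM, and the receptor coactivator Ncoa2 had 68.7 and 37.1 CPM. Hsd11b2, which inactivates glucocorticoid, was not measured. It had 79 counts in WT (0.144 CPM), all from 1 cell, and 0 in CKO. The mineralocorticoid receptor gene Nr3c2 had 17.7 and 15.3 CPM, with at least 10 counts in 16 WT and 9 CKO cells; its exons overlap those of Gm10649. H6pd, also on the list, was not measured, with 0.204 and 0.576 CPM and 1 clearly positive cell in each group. H6pd, Hsd11b2 and Nr3c2 were chosen after their values were seen.

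**Figure D3:**
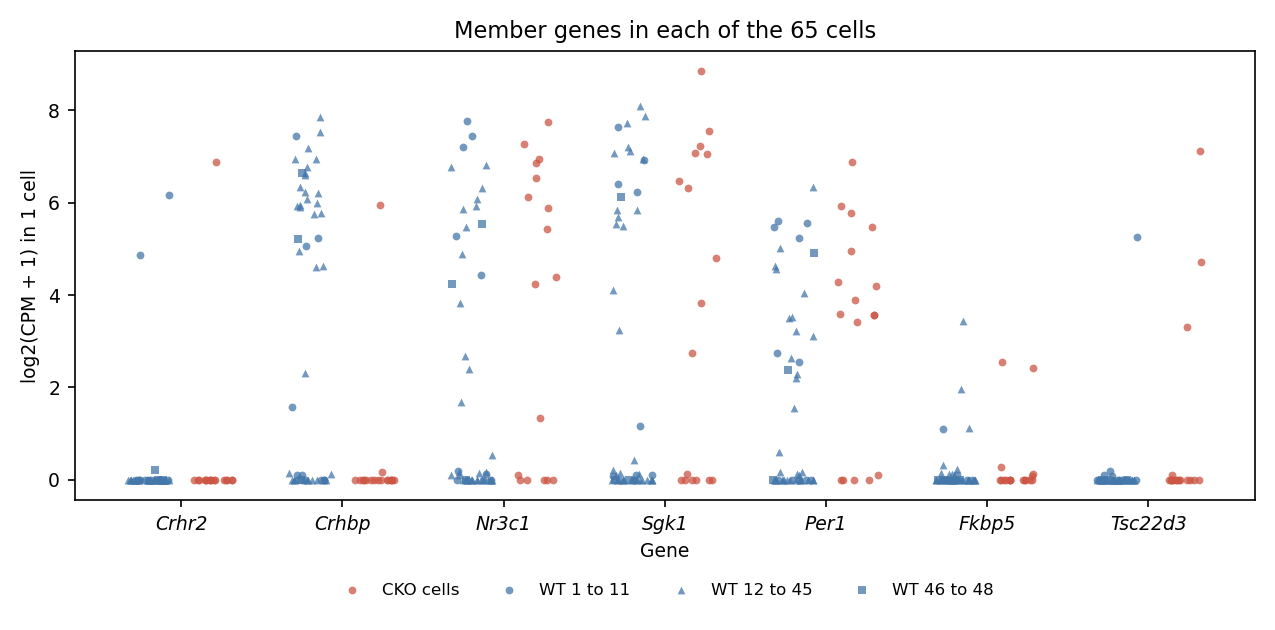
Level of 7 member genes in each cell, as log2(CPM + 1), for 48 WT and 17 CKO-labelled cells; marker shapes show the 3 subsets of WT cells by number. Each gene has cells at 0 in both groups, and Nr3c1, Sgk1 and Per1 overlap over nearly their whole range.

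Sgk1, a kinase induced by glucocorticoids and mineralocorticoids that acts on ion channels and transporters, was clearly detected in both groups. The gene spans 21882184 to 21999903 on chromosome 10 (plus strand), with 6 start sites in the RefSeq table. Promoter windows of 300 bases (250 before and 50 after a start) were searched on both strands for the receptor's palindromic response element (AGAACA and TGTTCT separated by 3 bases), its single arm TGTTCT, the cAMP response element TGACGTCA with its core TGACG, and the E-box CACGTG bound by clock proteins. The longer motifs contain the arm and the core, and the tallies count both. The exact palindrome was found in 3 of 32544 windows (0.00922%), and 1 of the 3 belongs to Sgk1, beginning at position -189 from the start. Of all windows, 18.9% hold TGTTCT, 20.9% TGACG, 1.80% TGACGTCA and 7.17% CACGTG. The Sgk1 window is printed up to its start, chr10:21993640-21993889 on the plus strand, with the E-box and the receptor arms in capitals; at its left end an E-box and an arm overlap.
Sgk1 upstream: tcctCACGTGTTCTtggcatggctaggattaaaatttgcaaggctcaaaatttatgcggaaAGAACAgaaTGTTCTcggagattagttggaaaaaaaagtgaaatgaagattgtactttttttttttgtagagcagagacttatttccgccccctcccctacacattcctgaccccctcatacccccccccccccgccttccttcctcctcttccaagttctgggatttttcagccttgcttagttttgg

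Per1 (chromosome 11, 69095217 to 69109960, plus strand), a repressor in the circadian clock that glucocorticoids also induce, has 2 windows. The window further upstream is shown because it holds an E-box and a cAMP core, both in capitals (chr11:69098699-69098947, plus strand). Such a match is a description of letters and not of binding.
Per1 upstream: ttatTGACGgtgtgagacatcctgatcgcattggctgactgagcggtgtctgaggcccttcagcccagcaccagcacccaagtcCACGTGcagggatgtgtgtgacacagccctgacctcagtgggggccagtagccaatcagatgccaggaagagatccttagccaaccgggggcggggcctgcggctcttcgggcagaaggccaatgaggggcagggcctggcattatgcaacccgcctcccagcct

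Among the other members, Fkbp5 has an E-box at position -169 from its start, Ucn a receptor arm at -54 and a full cAMP element at -44, and Tsc22d3 a receptor arm at -185 from 1 of its starts and a cAMP core at -224 from another. In the Crhbp window the only match was a cAMP core on the opposite strand, at -64 from the RefSeq start and inside an annotated exon. RefSeq windows were found for 8 members, and the promoter set used held none for Crh and Nr3c1.

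At least 10 Sgk1 counts were present in 41.7% of WT cells (20 of 48, 27.6 to 56.8%) and 58.8% of CKO cells (10 of 17, 32.9 to 81.6%). Clearly positive WT cells ran from 1.25 to 270 CPM with a median of 78.9 CPM, the highest being WT cell 42. Clearly positive CKO cells ran from 5.67 to 459 CPM with a median of 110 CPM. The top CKO cell was number 9, the same cell that held all Crhr2 counts of its group, and it stood far above the next CKO cell at 188 CPM. Summed levels were 43.7 CPM (43.2 to 44.3) and 77.6 CPM (76.4 to 78.9), a log2 ratio of 0.83 (0.80 to 0.86). Without CKO cell 9, which gave 36.3% of the CKO counts, the log2 ratio was 0.27. Among Xist-pattern cells it was 0.59, and against the 3 subsets of WT cells in order of number it was 0.84, 0.76 and 1.73.

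For Per1, no cell gave more than 15.1% of the WT counts or 22.9% of the CKO counts. It reached 10 counts in 43.8% of WT cells (21 of 48, 29.5 to 58.8%) and 70.6% of CKO cells (12 of 17, 44.04 to 89.7%). Clearly positive WT cells ran from 1.96 to 79.9 CPM with a median of 10.4 CPM, and clearly positive CKO cells from 9.69 to 116 CPM with a median of 17.9 CPM. Both distributions overlapped, and CKO was the higher in 63.5% of the cell pairs and WT in 25.7%. Summed levels were 9.49 CPM (9.23 to 9.75) and 20.9 CPM (20.3 to 21.6), a log2 ratio of 1.14 (1.08 to 1.20). WT cells 1 to 11 had 16.4 CPM and WT cells 12 to 45 had 6.29 CPM, so the log2 ratio was 0.35 against the former and 1.74 against the latter. Among Xist-pattern cells levels were 11.1 and 22.8 CPM.

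The receptor targets Fkbp5 and Tsc22d3 were scarce. Klf9, another gene known to be induced by glucocorticoids, was not, with 157 CPM in WT and 215 CPM in CKO. It had at least 10 counts in 47 WT and 16 CKO cells, and was named after its value was seen. Fkbp5 (chromosome 17, 28399094 to 28517527, minus strand) had 0.339 CPM (0.292 to 0.392) in WT and 0.606 CPM (0.502 to 0.724) in CKO, below the limit for a measured gene. At least 10 counts of it were seen in 4 WT and 2 CKO cells, with 64.0% of the WT counts in WT cell 37 and 50.4% of the CKO counts in CKO cell 5. Its log2 ratio was 0.84 (0.49 to 1.17). It was -0.084 without CKO cell 5, 2.28 without WT cell 37 and 1.36 without both. Cells of the Xist pattern gave 2.69. The first 2 subsets of WT cells gave 2.75 and 0.33, while the third subset had no count. Tsc22d3 (chromosome X, 140539528 to 140600659, minus strand) had 503 counts (37.2 CPM) in WT cell 10 and 4 counts in all over 3 other WT cells. In CKO it had 1153 counts (138 CPM) in cell 12, 238 in cell 4, 73 in cell 13 and 1 in cell 6. Summed levels were 0.925 CPM (0.846 to 1.01) and 7.33 CPM (6.96 to 7.72), a log2 ratio of 2.99 (2.84 to 3.13). This ratio was 0.82 without CKO cell 12, 9.94 without WT cell 10, and 7.77 without both cells. It was -1.21 among Xist-pattern cells, 1.17 against WT cells 1 to 11, and at least 9.76 and 6.47 against the 2 later subsets, which had no count. A few cells thus set its size, and the choice of cells its direction.

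In counts per kilobase of merged exons and 1000000 counts, the order of levels in WT was Crhbp 24.3, Sgk1 8.92, Nr3c1 3.84, Per1 1.69, Crhr2 0.414, Tsc22d3 0.213 and Fkbp5 0.0359. In CKO the order was Sgk1 15.8, Nr3c1 6.67, Per1 3.72, Crhbp 2.14, Tsc22d3 1.69, Crhr2 1.40 and Fkbp5 0.0640. Crhbp thus moved from the top to a place below Per1, while Sgk1, Nr3c1 and Per1 stood in the same sequence in both groups. The cells of neighbouring genes in these orders overlapped, since each gene had cells with 0 counts in both groups.

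Counting the receptor and the 4 response genes together, 8 of 48 WT cells and 0 of 17 CKO cells had none of the 5 at 10 counts. The mean was 1.35 genes per WT cell and 2.24 per CKO cell. Of the 4 response genes, exactly 2 were found together in 5 WT and 9 CKO cells, and 3 in 2 WT cells and 1 CKO cell. The summed level of the 4 had a median of 19.8 CPM (range 0 to 293) in WT cells and 53.5 CPM (0 to 459) in CKO cells. The highest CKO sum was the Sgk1 level of CKO cell 9 alone, so the sum does not show a joint rise of the 4 genes. Neither the sum nor the tallies were split by WT subset or sex pattern. In WT, Sgk1 was found in 15 of the 28 Crhbp-positive cells and in 5 of the 20 others, Per1 in 13 and 8, and Nr3c1 in 10 and 9. Per1 was found in 11 of the 19 Nr3c1-positive WT cells and 10 of the 29 others, and in 9 of 11 and 3 of 6 CKO cells. These are cells of 1 sample per genotype, so the tallies describe these libraries only.

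Of 13 other genes of the hormone axis, 5 had no count in any cell and 2 were measured. Pomc, the precursor of corticotropin, had 6.69 CPM in 12 clearly positive WT cells and 8.37 CPM in CKO, where 4 cells were clearly positive. Pcsk1, an enzyme that processes peptide precursors, had 0 counts in WT and 11.3 CPM in CKO, nearly all from 1 cell, so its log2 ratio is a lower bound of 11.01. Of 30 genes of Gs and cAMP signalling, through which CRH receptors act, 19 were measured; 10 were higher, 9 were lower, and the median log2 ratio was 0.22. At least 2-fold higher were 4 and lower 3, beside 15.1% and 14.5% of all measured genes. Crtc3 and Arrb2 were measured only through CKO. Prkar1a, a regulatory subunit of protein kinase A and the most abundant of the list, had 285 and 258 CPM. The CREB coactivator Crtc3 had 3.96 and 28.9 CPM and its relative Crtc2 the reverse, 42.9 and 13.9 CPM. Arrb2, a beta-arrestin, had 2.61 and 9.32 CPM, with 3 clearly positive cells in each group.

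Of 34 other genes known to be induced by glucocorticoids, 15 were measured. In CKO 7 were higher and 8 lower, 2 at least 2-fold higher and 5 at least 2-fold lower, with a median log2 ratio of -0.13. Of all measured genes, 15.1% were at least 2-fold higher and 14.5% at least 2-fold lower. Klf15, Nedd9 and Mt1 were measured only through WT, so their direction was set by the filter and nothing is read from these counts. Nfkbia, an inhibitor of NF-kappaB that is also induced by NF-kappaB itself, had 146 CPM in WT and 912 CPM in CKO, with median cells at 55.1 and 682 CPM. Among Xist-pattern cells it had 318 and 826 CPM, and WT cells 1 to 11 had 267 CPM, so the difference was smaller in these subsets. Klf15, a transcription factor, had 5.06 CPM in WT, from 3 clearly positive cells, and 1 count in CKO. Nedd9, an adhesion scaffold, had 7.02 and 0.105 CPM, from 4 and 1 clearly positive cells, and its exons overlap those of Gm32401. Mt1, a metallothionein, had 14.4 and 0.465 CPM, from 10 and 1 clearly positive cells. Zbtb16, Mt2, Pdk4, Lcn2 and Anxa1 had no count in any cell; they were named after their values were seen. Dusp1, a phosphatase of MAP kinases, had 41.3 and 110 CPM. It was clearly detected in 20 of 48 WT and 14 of 17 CKO cells. Dusp1 too was chosen after its value was seen, and its exons overlap those of Ergic1. Glul, also named after its value was seen, went the other way, with 64.4 and 18.96 CPM, a log2 ratio of -1.76. It was clearly detected in 33 WT and 5 CKO cells. WT cells 1 to 11, 12 to 45 and 46 to 48 had 77.2, 63.03 and 23.07 CPM of Glul. Among Xist-pattern cells it had 78.002 CPM in WT and 21.5 CPM in CKO. The exons of Glul overlap those of Teddm2 and Mir8114.

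Of 20 clock genes, 16 were measured. In CKO 11 were higher and 5 lower, and the median log2 ratio was 0.14. Of all measured genes, 50.4% were higher in CKO, with a median log2 ratio of 0.01. At least 2-fold higher were 15.1% of all measured genes, and at least 2-fold lower 14.5%. Nfil3 was the only measured clock gene 2-fold apart (6.74 and 0.0300 CPM, from 2 and 0 clearly positive cells). Rora, an activator of the clock, had 419 and 469 CPM, Tef 43.2 and 25.5 CPM, and Ciart 4.08 and 7.40 CPM. Nfil3 was measured only through WT and Ciart only through CKO, so the filter set their direction and nothing is read from it. The exons of Rora overlap those of Gm15511 and the exons of Tef those of Gm17597. Per2, the close relative of Per1, had no count in any cell, and whether this is a property of the counting was not tested. Of 14 relatives and partners of Sgk1, Fkbp5 and Tsc22d3, 11 were measured. In CKO 8 were higher and 3 lower, 2 at least 2-fold higher and 2 at least 2-fold lower. Their median log2 ratio was 0.13. Tsc22d1 had 292 and 320 CPM, Tsc22d2 10.6 and 26.6 CPM, and Tsc22d4 1.59 and 8.07 CPM. Nedd4l, a ubiquitin ligase that SGK1 inhibits, had 25.3 and 4.01 CPM, from 15 and 2 clearly positive cells. Its exons overlap those of A330084C13Rik. As Nedd4l was measured only through WT and Tsc22d4 only through CKO, the filter set their direction too and nothing is read from it.

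Per1, Dusp1 and Nfkbia are also induced by stimuli other than glucocorticoids, so immediate early genes, which respond within minutes to many stimuli, were listed as well with these data known. Of 14 such genes, 11 were measured and these 11 were higher in CKO, 6 of them at least 2-fold, with a median log2 ratio of 1.07. Of all measured genes, 15.1% were at least 2-fold higher. Atf3 and Nr4a1 were measured only through CKO. Of the 3 genes under the limit, Socs3 went the other way, with 2115 counts (3.86 CPM) from 2 clearly positive WT cells and 0 counts in CKO; Fosl2 had 12 and 0 counts, and Ier3 had 2 and 1. Atf3, Socs3, Fosl2 and Ier3 were named after their values were seen. Jun had 636 and 1332 CPM, Btg2 44.6 and 173 CPM, and Nr4a1 0.613 and 16.3 CPM, the last from 1 and 3 clearly positive cells. The median was 1.94 among Xist-pattern cells, where 8 were higher and 3 lower. Set against the 3 subsets of WT cells in order of number, it was 2.15, 1.19 and 2.12, with 10 higher and 2 lower against cells 12 to 45. The other glucocorticoid-induced genes had medians of 0.45, 0.16, -0.09 and 0.20 in the same order. Whether the higher level of these genes has a part in the Per1 difference was not tested.

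**Figure D4:**
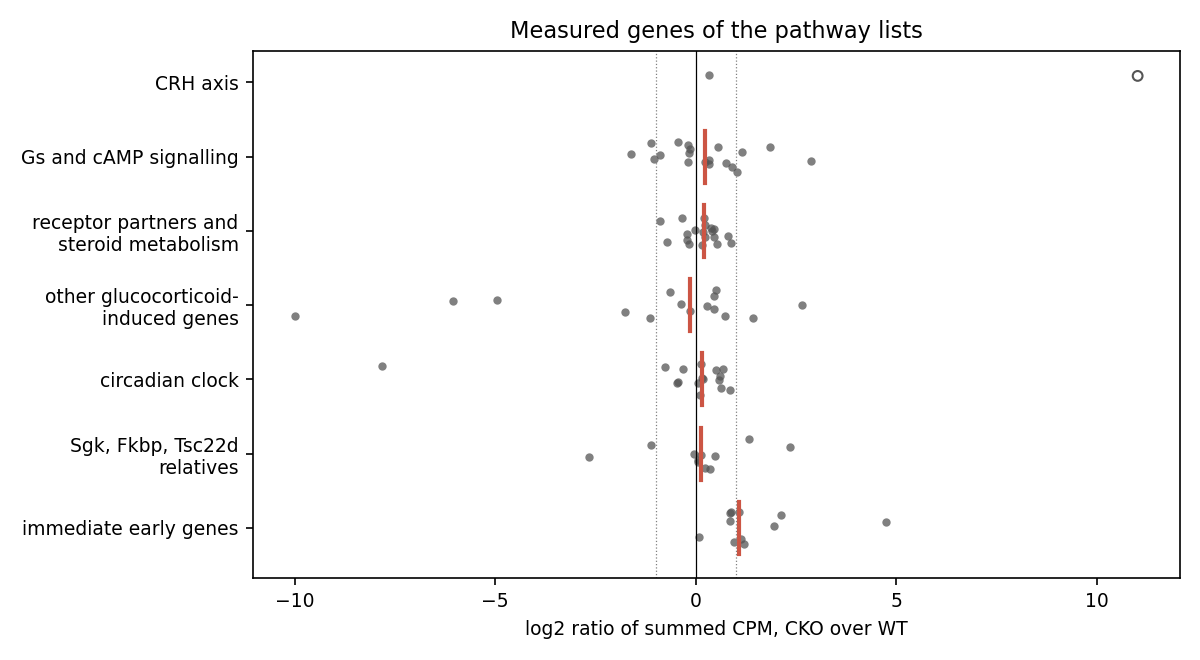
Log2 ratio of CKO over WT for each measured gene of the lists; red lines are medians of lists with more than 2 genes, the open circle is the bound for Pcsk1, and dotted lines mark 2-fold. The 11 measured immediate early genes lie above 0, with a median of 1.07, whereas the other glucocorticoid-induced genes lie on both sides, with a median of -0.13.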

How the data were processed

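For the 65 cells the authors deposited gene counts, as whole numbers, in 1 table. Per the submitters' processing notes, HISAT2 2.2.1, StringTie 2.2.1 and featureCounts 2.0.1 were used with mm10; the annotation release, the strand setting and filters are not given in the sources used. Columns were matched to samples by title. Cells were picked singly, so no doublet caller was run, no cell was removed, and none of the 2080 cell pairs had identical columns.

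The members, the lists and the rule for named genes were chosen with earlier results of these data known. The rule took all 10 members, Casz1, the 5 genes most like Crhbp among those with a count in at least 25% of WT cells and 5 CPM, and from each list up to 3 measured genes with the largest ratio and the most abundant gene. Counts were summed per group and divided by summed totals to give CPM (Python 3.11.15, scipy 1.17.1). Where a group had 0 counts, a floor of 3 counts over the group stood in, and the ratio is a bound. With 1 sample per genotype no test was run. Positions, merged exon lengths and overlaps came from GENCODE M21 (GRCm38), which holds 53292 of the 55292 symbols (96.4%), and promoters from RefSeq (GRCm38.p6). A cell had the Xist pattern with at least 10 Xist counts and fewer than 10 over Y-linked genes. Ratios were tested on simulated counts, with and without many cells at 0. Intervals were tested on simulated Poisson counts alone, which do not mimic groups whose counts rest on 1 cell. Alternatives were TMM (edgeR 4.0.16) and median-of-ratios (DESeq2 1.42.0) scaling, the mean or median of per-cell CPM, a total without mitochondrial and ribosomal protein genes, thinning to 7000000 counts, other detection limits and filters, and subsets of cells. Leaving out the highest cell of 1 group was chosen after seeing the data.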

Additional observations from a re-analysis of the deposited data

How the results depend on the processing

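The direction of Crhbp was the same under all 12 alternatives, with log2 ratios from -12.997 to -2.24. Its ratio was -3.69 by the mean of per-cell CPM, -3.65 after thinning, -2.24 among Xist-pattern cells, -2.42 against WT cells 1 to 11, and -3.80 against WT cells 12 to 45. It was -12.90 without the highest cell of each group and -12.997 without CKO cell 3, both resting on 1 CKO count. The number of members at least 2-fold lower was 1, and 0 by the median of per-cell CPM, which gave no value for Crhbp. The number at least 2-fold higher was 3; it was 1 without the highest cell of each group, 1 against WT cells 1 to 11, 1 at a limit of 20 CPM, and 0 without the highest CKO cell. It was 2 among Xist-pattern cells, and 4 by the mean of per-cell CPM, after thinning, without the highest WT cell, and against WT cells 12 to 45 or 46 to 48. Directions reversed for Crhr2 (-5.43 without the highest cell of each group, -7.05 without the highest CKO cell, -0.21 among Xist-pattern cells, -0.057 against WT cells 1 to 11), Nr3c1 (-0.21 against WT cells 1 to 11), Fkbp5 (-0.084 without the highest CKO cell) and Tsc22d3 (-1.21 among Xist-pattern cells). Each of these settings used fewer cells than the main one, and the cause of the reversals was not tested. Per1 and Sgk1 kept their direction under all 13 alternatives, from 0.35 to 6.70 and from 0.27 to 7.26, the upper ends being ratios of near-zero medians. The share of WT cells with any Crhbp count was 66.7%, and from 54.5 to 70.6% under its alternatives. At 10 counts it was 58.3% (43.2 to 72.4%). It was 36.4% in WT cells 1 to 11 (10.9 to 69.2%) and 33.3% in Xist-pattern WT cells (7.49 to 70.1%). Both shares lie below the interval of all WT cells, but their own intervals overlap it. No paired analysis was possible because the numbers of the cells do not pair them and no comparison was tested.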
